A study of Mus musculus with 6 samples.

Results

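The type 2 cytokines and their receptors were read out in the skin of mice lacking JunB in the epidermis as 10 genes of the deposited table, out of 23951 in all. The cytokines are Il4, Il5, Il13 and Tslp, and the receptor chains are Il4ra, Il13ra1, Il13ra2, Crlf2, Il7r and Il1rl1. Each was taken as the row with that symbol, without regard to its values. Of the 10 genes, 9 averaged 0.1 FPKM or more across the mice and entered the comparison of genotypes, and Il5 did not. FPKM, fragments scaled to transcript length and to all mapped fragments, is a level per length. Its sum over all genes differs between the mice, and the values were compared without further scaling.

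The series holds RNA sequencing of skin from 3 JunBΔep mice (JunB dep in the labels) and 3 control mice (JunB +/+), on the C57Bl/6 strain and aged 6 to 7 months by the labels. The paper states that the JunBΔep skin was lesional, so genotype and lesion are not separated in the comparison. In JunBΔep mice a floxed Junb gene is removed by Cre recombinase under the keratin 5 promoter, so that basal keratinocytes and their progeny lose it while dermal, endothelial and immune cells keep it. JunB is a subunit of the AP-1 transcription factor, and the study asked how its loss in the epidermis leads to spontaneous skin inflammation. Whole skin was used, so fewer cells of a type and less RNA per cell cannot be told apart in any value below. The replicate numbers of the labels, 0, 1 and 2, name the mice here.

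Type 2 immunity is built around a few cytokines made mainly by T helper 2 cells, group 2 innate lymphoid cells, mast cells and basophils. IL-4 and IL-13 share the chain IL-4Rα, which pairs with the common γ chain to bind IL-4, and with IL-13Rα1 to bind either cytokine. Both complexes signal through STAT6, while IL-13Rα2 binds IL-13 tightly and is best known as a decoy. IL-5 drives eosinophils. Keratinocytes start the response from outside by releasing TSLP, read by a heterodimer of CRLF2 and IL-7Rα, and IL-33, read by ST2, the product of Il1rl1, together with the accessory chain encoded by Il1rap. In atopic dermatitis these pathways drive itch, barrier loss and the recruitment of further immune cells.

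One library has to be described before the results, because most of them turn on it. Control replicates 0, 1 and 2 had Junb at 59.3, 72.4 and 56.9 FPKM, and JunBΔep replicates 1 and 2 had it lower, at 42.8 and 28.0 FPKM. In the library labelled JunBΔep replicate 0 it was at 129.6 FPKM, above every control, so the targeted gene goes against the label there, and every direction drawn from this library carries that limit. The same library held the highest value of the 6 for 29.7% of all tested genes. It was also the only JunBΔep library with Xist near 0, as in control replicates 0 and 2, whereas the other JunBΔep libraries and control replicate 1 had Xist at 27.6 to 34.2 FPKM. The part of sex in the values below, those of the X-linked genes Il13ra1 and Il13ra2 included, was not tested. Of the 12 keratinocyte markers, 11 are in the table and sum to 10314 to 17795 FPKM in controls and to 10480 to 18786 FPKM in JunBΔep skin, so epidermal markers were present in every library, although Krt14 is listed at 0 in JunBΔep replicate 0. Skeletal muscle markers, 15 genes, summed to 22049 to 29234 FPKM in controls and to 2060 to 4963 FPKM in JunBΔep skin. JunBΔep replicate 0, at 2212 FPKM, lay with the other JunBΔep mice here. The part of this difference in the results below was not tested.

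No member of the group passed the comparison between genotypes. Under limma on log2(FPKM + 0.5), 0 of the 9 tested members had an adjusted p below 0.05 and 0 had an unadjusted p below 0.05, where 1.38% of the 17021 tested genes (235 genes, every one of them lower in JunBΔep skin) passed the first limit and 7.56% the second. For 0 of the 10 genes did the values of the 3 JunBΔep mice stand clear of those of the 3 controls, against 14.8% of all tested genes. The intervals given below are wide, and a p above the limit does not show that the groups had equal levels. What the data do show is a group of receptor genes highest in JunBΔep replicate 0, the library that was highest for 29.7% of all tested genes. There Il4ra, Il13ra1, Il13ra2 and Il1rl1 were at 2.86 to 11.4 times the highest control. Crlf2 and Il7r were at 1.79 and 2.31 times. The T cell cytokine genes lay near the lower end of the measured range in every mouse. The ligand Tslp was lower than every control in JunBΔep replicates 1 and 2 and higher than every control in replicate 0. With 3 mice in each group, the exact two-sided permutation test of a single gene cannot give a p below 0.1, and it gave p from 0.4 for Crlf2 to 1 for Tslp.

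**Figure D1:**
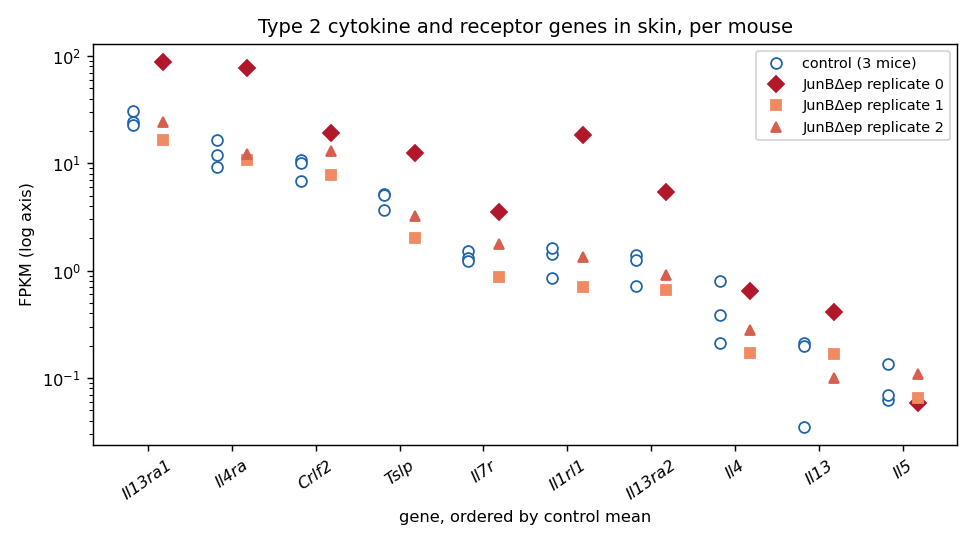
FPKM (log axis) of the 10 genes in each mouse, ordered by the mean of the 3 controls: open circles are control mice, filled symbols the libraries labelled JunBΔep replicates 0, 1 and 2. Replicate 0 is the highest point for 8 of the 10 genes, and the controls run from 0.0351 FPKM for Il13 to 30.5 FPKM for Il13ra1.

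Levels in control skin ran from the receptor chain Il13ra1 down to the cytokine Il5, with the ligand Tslp between the receptors. Il13ra1 was the most abundant at 25.9 ± 4.07 FPKM (SD, n = 3), and its control values lay clear of those of Il4ra at 12.6 ± 3.70 FPKM. Il4ra overlapped Crlf2 at 9.15 ± 2.04 FPKM, and both lay above Tslp at 4.62 ± 0.828 FPKM, the most abundant of the ligands. Il7r at 1.35 ± 0.156 FPKM, Il1rl1 at 1.30 ± 0.397 FPKM and Il13ra2 at 1.13 ± 0.364 FPKM followed, each overlapping its neighbour. The T cell cytokines closed the order, with Il4 at 0.464 ± 0.302 FPKM, Il13 at 0.148 ± 0.0982 FPKM and Il5 at 0.0889 ± 0.0400 FPKM. Il4 overlapped Il13ra2 and Il13 overlapped Il5, while Il4 and Il13 met, the lowest Il4 and the highest Il13 control both being 0.210 FPKM. Read totals are not known, and these low values therefore carry no counting interval.

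Il4, Il13 and Il5 lie in one cluster on mouse chromosome 11, with Rad50 between Il13 and Il5. On the mm9 build Il4 spans 53416484 to 53432171 on the minus strand, Il13 spans 53444826 to 53448204 on the minus strand, and Il5 spans 53534296 to 53538608 on the plus strand. In the GENCODE annotation the Il4 gene shares 1263 bases with Kif3a on the opposite strand. The libraries keep strand, but whether the counting used it is not given. The paper names another mm9 annotation, from iGenomes, for its differential expression, and the overlap was not checked there. Whether a low Il4 value holds reads of Kif3a, which was at 3.64 to 5.35 FPKM, was therefore not tested.

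Il4, the cytokine that commits T cells to the T helper 2 fate, was at 0.384, 0.798 and 0.210 FPKM in controls and at 0.647, 0.171 and 0.279 FPKM in JunBΔep skin, here and below in the order of replicates 0, 1 and 2. The groups overlapped, and the highest value was that of a control. The log2 fold change of JunBΔep over control was -0.15 (SE 0.31, 95% interval -0.91 to 0.62, limma adjusted p = 0.878). Without JunBΔep replicate 0 it was -0.37.

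Il13, the effector cytokine of barrier tissues, was at 0.210, 0.1998 and 0.0351 FPKM in controls and at 0.408, 0.167 and 0.0990 FPKM in JunBΔep skin. Replicate 0 was the highest of the 6 and control replicate 2 the lowest, with the other 4 mice between them. Il13 differed by 0.15 on the log2 scale (SE 0.23, limma adjusted p = 0.821), and by -0.02 without JunBΔep replicate 0. Il5 was at 0.135, 0.0628 and 0.0689 FPKM in controls and at 0.0583, 0.0657 and 0.109 FPKM in JunBΔep skin, and its highest and its lowest value were those of a control and of JunBΔep replicate 0. Fitted without the filter on low values, Il5 differed by -0.03 (SE 0.06, limma adjusted p = 1). The pseudocount of 0.5 FPKM exceeds most of these values, so log2 differences of the 3 cytokines are compressed.

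Summed over Il4, Il5 and Il13, cytokine transcripts amounted to 0.729, 1.06 and 0.314 FPKM in the controls and to 1.11, 0.403 and 0.487 FPKM in JunBΔep skin. The sum of Il4ra, Il13ra1 and Il13ra2 was 44.0, 42.2 and 32.8 FPKM in the controls and 169, 27.9 and 37.6 FPKM in JunBΔep skin. JunBΔep replicate 0 had the highest value of both sums, close to control replicate 1 for the cytokines and clear of every control for the receptors.

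Tslp, the keratinocyte alarmin that conditions dendritic cells and innate lymphoid cells, lies on chromosome 18 from 32975037 to 32979453 (mm9, plus strand). It was at 5.15, 5.05 and 3.67 FPKM in controls and at 12.5, 2.01 and 3.22 FPKM in JunBΔep skin. JunBΔep replicates 1 and 2 were both below all controls, a pattern found in 1 of the 10 genes and in 13.0% of all tested genes, and replicate 0 was 2.70 times the control mean. These opposite deviations gave a difference of -0.04 (SE 0.62, 95% interval -1.54 to 1.46, limma adjusted p = 0.985). Without JunBΔep replicate 0 the difference was -0.73 and its adjusted p was 0.589.

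**Figure D2:**
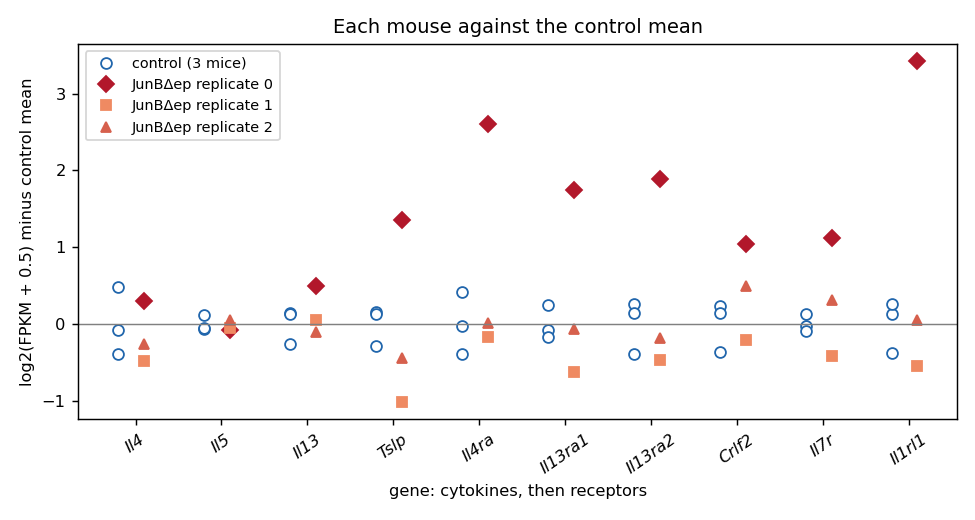
For each of the 10 genes, log2(FPKM + 0.5) of every mouse minus the control mean, with cytokines first and receptors after; open circles are controls and filled symbols the 3 libraries labelled JunBΔep. Replicate 0 reaches 2.60 for Il4ra and 3.42 for Il1rl1, while replicates 1 and 2 stay between -1.02, for Tslp, and 0.50, for Crlf2.

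Among the receptors, the chain shared by IL-4 and IL-13 was high in 1 mouse of 6. Il4ra (chromosome 7, 132695785 to 132722986, mm9, plus strand) was at 12.05, 16.5 and 9.20 FPKM in controls and at 76.7, 10.8 and 12.3 FPKM in JunBΔep skin. Replicate 0 was 4.64 times the highest control, and replicates 1 and 2 lay within the control range. Over all 6 mice the log2 fold change was 0.81 (SE 0.76, 95% interval -1.05 to 2.66, limma adjusted p = 0.734), and without replicate 0 it was -0.08.

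Both IL-13 receptor chains lie on the X chromosome, Il13ra1 from 33652105 to 33711254 on the plus strand and Il13ra2 from 143818019 to 143863735 on the minus strand (mm9). Il13ra1, the signalling partner of IL-4Rα, was at 30.5, 24.4 and 22.8 FPKM in controls and at 87.4, 16.5 and 24.4 FPKM in JunBΔep skin. Il13ra2, the decoy, was at 1.41, 1.25 and 0.716 FPKM in controls and at 5.40, 0.656 and 0.902 FPKM in JunBΔep skin. In both genes replicate 0 was the highest and replicate 1 the lowest of the 6 mice. The differences were 0.35 (SE 0.60, limma adjusted p = 0.845) for Il13ra1 and 0.41 (SE 0.65, limma adjusted p = 0.828) for Il13ra2, and without replicate 0 they were -0.35 and -0.33.

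The TSLP receptor chains varied less. Crlf2, the chain specific for TSLP (chromosome 5, 109983730 to 109988012, mm9), was at 10.6, 9.97 and 6.83 FPKM in controls and at 19.1, 7.73 and 12.9 FPKM in JunBΔep skin. Replicates 0 and 2 were above all controls, and replicate 1 lay within their range. Il7r, the chain shared with the receptor of IL-7 (chromosome 15, 9435916 to 9459631, mm9), was at 1.53, 1.31 and 1.23 FPKM in controls and at 3.52, 0.879 and 1.79 FPKM in JunBΔep skin, with replicates 0 and 2 above and replicate 1 below all controls. Crlf2 differed by 0.45 (SE 0.36, limma adjusted p = 0.722), or 0.15 without replicate 0, the only tested member that kept a positive sign. Il7r differed by 0.34 (SE 0.41, limma adjusted p = 0.785), or -0.06 without replicate 0.

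Il1rl1, which encodes the IL-33 receptor ST2, held the widest spread of the group. It spans 40486415 to 40522260 on chromosome 1 (mm9, plus strand) with 5 annotated transcripts, among which a gene-level value cannot separate the membrane receptor from the soluble decoy form. The gene was at 1.43, 1.62 and 0.856 FPKM in controls and at 18.5, 0.707 and 1.33 FPKM in JunBΔep skin. Replicate 0 was 14.2 times the control mean, replicate 1 was below all controls, and replicate 2 lay within their range. The log2 fold change was 0.97 (SE 1.03, 95% interval -1.54 to 3.49, limma adjusted p = 0.754), and -0.25 without replicate 0.

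**Figure D3:**
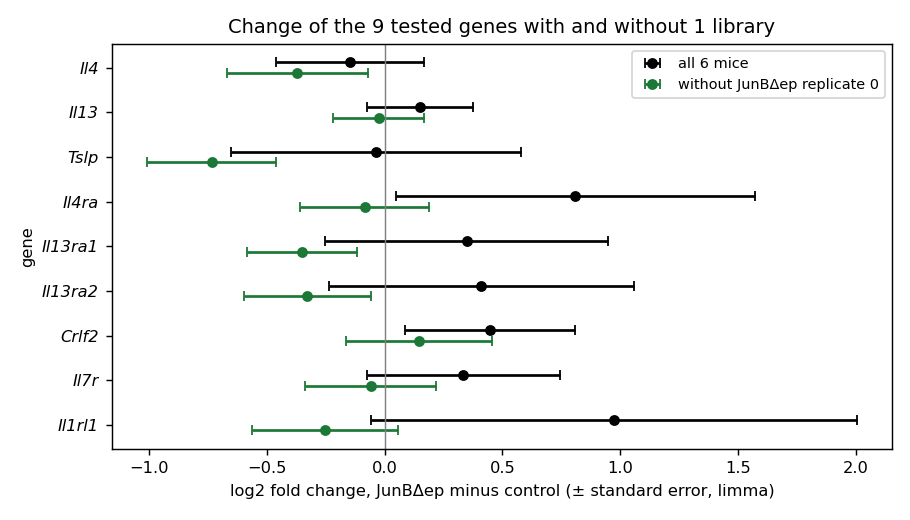
Log2 fold change of JunBΔep over control for the 9 tested genes, with bars of ± 1 standard error from limma, over all 6 mice (black) and without the library labelled JunBΔep replicate 0 (green). Il1rl1 moves from 0.97 to -0.25 and Il4ra from 0.81 to -0.08, and Crlf2 alone stays above 0 in both.

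Read as a group, most members had their highest value in the same mouse. JunBΔep replicate 0 was the highest of the 6 in 8 of the 10 genes, the exceptions being Il4 and Il5, and replicate 1 was the lowest in 6 of 10, where 17.6% of all tested genes had their lowest value in replicate 1. Replicate 0 stood at 2 or more times the control mean in 8 of 10, against 13.8% of all tested genes. Control replicate 2 was the lowest control in 9 of 10 genes, against 34.3% of all tested genes, and JunBΔep replicate 2 lay within the control range in 7 of 10, against 53.6%. The median log2 fold change of the 9 tested members was 0.35, with 7 higher and 2 lower, beside 0.03 over all tested genes. Without replicate 0 it was -0.25, with 1 higher and 8 lower, beside 0.03 again over all genes. The titles of the mice fall into 2 number series whose meaning is not given, with JunBΔep replicate 0 and control replicates 0 and 1 in one and the other 3 mice in the other. JunBΔep replicate 0 is thus the only JunBΔep mouse of its series, and control replicate 2 the only control of the other. A fit with this series as a term gives both libraries more weight, so it leans further on replicate 0. In that fit the 9 members differed by 0.06 (Il4) to 1.68 (Il1rl1), JunBΔep minus control. Il4ra differed by 1.35, Il13ra1 by 0.74, Il13ra2 by 0.88, Crlf2 by 0.69, Il7r by 0.56, Il13 by 0.30 and Tslp by 0.38. Under limma 0 of the 9 had an adjusted p below 0.05 in that fit, and Il4ra and Crlf2 had an unadjusted p below 0.05, beside 8.95% of all tested genes and 0 genes called in all.

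Ratios between partner chains of the same mouse were compared for 4 pairs, and with the added 0.5 FPKM they still depend in part on the scaling between libraries where a chain is low. On the log2(FPKM + 0.5) scale Il13ra2 to Il13ra1, decoy to signalling chain, was at -4.02, -3.83 and -4.26 in controls and at -3.90, -3.88 and -4.15 in JunBΔep skin. As plain FPKM ratios these were 0.0461, 0.0515 and 0.0314 in controls and 0.0618, 0.0398 and 0.0369 in JunBΔep skin, a wider spread than on the scale with the pseudocount, and the groups overlapped on both. The mean difference of the log2 ratio was 0.06, with p = 0.7 in the exact two-sided permutation test, whose smallest possible value is 0.1, and it was 0.091 or 0.024 with a pseudocount of 0.1 or 1 FPKM. Crlf2 to Il7r, the pair that binds TSLP, was at 2.46, 2.54 and 2.09 in controls and at 2.28, 2.58 and 2.55 in JunBΔep skin (difference 0.11, exact permutation p = 0.5).

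For the other two ratios single mice set much of the difference. Il4ra to Il13ra1 was at -1.31, -0.55 and -1.27 in controls and at -0.19, -0.59 and -0.96 in JunBΔep skin. The difference was 0.46 (exact permutation p = 0.3), or 0.27 without JunBΔep replicate 0 and 0.71 without control replicate 1. Il1rl1 to Il1rap, the binding chain of the IL-33 receptor to its accessory chain, was at -1.81, -0.89 and -2.23 in controls and at 0.62, -1.75 and -1.34 in JunBΔep skin, so that Il1rl1 exceeded Il1rap in replicate 0 alone. Its difference was 0.82 (exact permutation p = 0.4), or 0.10 without replicate 0. Adjusted over the 4 ratios, the exact permutation p were 0.667 to 0.7.

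**Figure D4:**
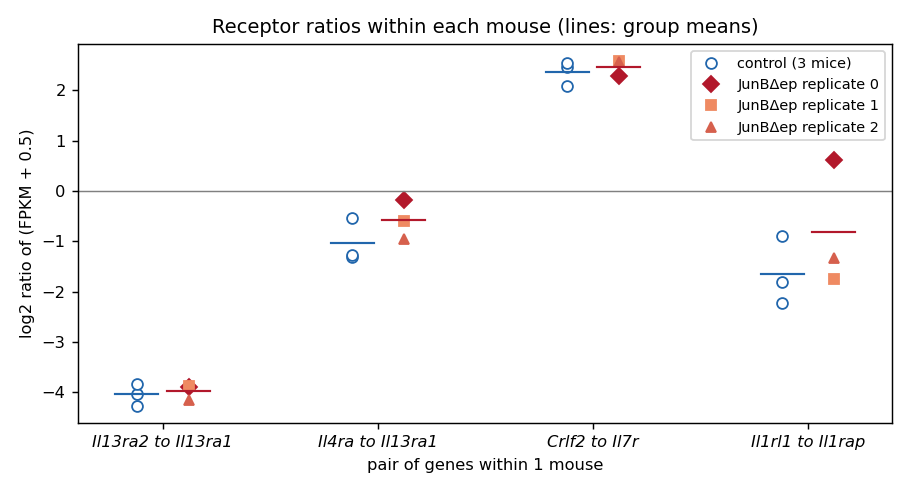
Log2 ratio of (FPKM + 0.5) between 2 receptor chains of the same mouse, for 4 pairs, with controls as open circles, the 3 libraries labelled JunBΔep as filled symbols and horizontal lines at the group means. The Il13ra2 to Il13ra1 points lie between -4.26 and -3.83, and for Il1rl1 to Il1rap replicate 0 stands at 0.62 with every other mouse below 0.

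Upstream sequences are shown for Il4 and for the 3 listed receptor chains of the IL-4 and IL-13 axis, since JunB acts through AP-1 sites and STAT6 through sites of its own. They are the 250 bases before the RefSeq start on build GRCm38.p6, a later build than the mm9 used for the expression values, written 5′ to 3′ on the strand of the gene. Capitals mark a match to TGANTCA, a core AP-1 motif, or to TTCNNNNGAA, a STAT6 motif, searched on both strands.
Il4, chr11:53618666-53618915, minus strand: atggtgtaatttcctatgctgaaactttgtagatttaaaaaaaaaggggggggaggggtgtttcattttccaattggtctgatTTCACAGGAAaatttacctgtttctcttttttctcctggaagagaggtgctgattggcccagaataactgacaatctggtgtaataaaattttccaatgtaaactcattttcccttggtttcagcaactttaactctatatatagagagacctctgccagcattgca
Il4ra, chr7:125552021-125552270, plus strand: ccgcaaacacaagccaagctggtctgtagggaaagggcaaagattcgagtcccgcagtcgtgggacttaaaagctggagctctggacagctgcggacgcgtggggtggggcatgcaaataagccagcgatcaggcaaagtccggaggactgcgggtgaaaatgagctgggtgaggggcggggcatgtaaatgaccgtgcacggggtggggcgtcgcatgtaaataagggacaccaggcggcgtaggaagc
Il13ra1, chrX:36111858-36112107, plus strand: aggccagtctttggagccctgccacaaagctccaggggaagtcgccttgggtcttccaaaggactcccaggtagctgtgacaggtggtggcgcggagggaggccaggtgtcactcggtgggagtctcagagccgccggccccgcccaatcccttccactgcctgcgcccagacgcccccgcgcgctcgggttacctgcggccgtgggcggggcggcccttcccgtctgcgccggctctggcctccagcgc
Il13ra2, chrX:147429193-147429442, minus strand: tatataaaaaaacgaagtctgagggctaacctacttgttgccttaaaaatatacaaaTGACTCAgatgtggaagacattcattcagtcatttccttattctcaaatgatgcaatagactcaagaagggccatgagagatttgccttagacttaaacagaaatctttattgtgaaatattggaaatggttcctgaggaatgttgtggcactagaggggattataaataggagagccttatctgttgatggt

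Il13ra2 was the single member with a match to the AP-1 motif, TGACTCA at 193 bases before the start. Il4 was the single member with a match to the STAT6 motif, at 167 bases before the more upstream of its RefSeq starts, and Il7r the single member with a match to the related motif TTCNNNGAA. The windows of Il4ra and Il13ra1 hold neither motif. Across all 32851 RefSeq promoters of this length the AP-1 motif occurs in 6.75%, the STAT6 motif in 5.85% and TTCNNNGAA in 7.02%. The GC content of the windows shown was 70.8% for Il13ra1, 59.6% for Il4ra, 36.0% for Il13ra2 and 37.6% for Il4. The window of the other RefSeq start of Il4, not shown, has a GC content of 52.8% and no match to these motifs. Starts were available for 9 of the 10 genes. A match is a stretch of letters and not a measured site.

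Partners and further ligands of the pathway were read from a list of 20 genes, of which 17 were tested. Under limma 0 of the 17 passed an adjusted p of 0.05, 0 had an unadjusted p below 0.05, and the median log2 fold change was 0.01, or -0.10 without JunBΔep replicate 0. Il33, the alarmin read by ST2, was at 26.1, 23.2 and 13.9 FPKM in controls and at 79.7, 4.96 and 10.9 FPKM in JunBΔep skin. This was the layout of Tslp, with replicate 0 above and replicates 1 and 2 below all controls, and the difference was -0.29 (limma adjusted p = 0.924), or -1.40 without replicate 0. Osmr, a chain of the receptors of IL-31 and oncostatin M, was at 8.95, 10.5 and 8.53 FPKM in controls and at 29.3, 9.03 and 19.1 FPKM in JunBΔep skin. Its partner Il31ra ran otherwise, at 2.41, 2.47 and 1.55 FPKM in controls and at 0.134, 1.26 and 3.66 FPKM in JunBΔep skin.

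Il5ra, the specific chain of the IL-5 receptor, was the 1 gene of this list whose groups stood apart, at 0.324, 0.339 and 0.262 FPKM in controls and at 0.245, 0.238 and 0.155 FPKM in JunBΔep skin (difference -0.18, limma adjusted p = 0.722), where 14.8% of all tested genes stood apart. Il2rg, the common γ chain, was at 8.32 to 13.9 FPKM in controls and at 21.9, 6.16 and 13.0 FPKM in JunBΔep skin. Il9 and Il3 are listed at 0 in every mouse, and Il31, the itch cytokine, is listed at 0 in every mouse but JunBΔep replicate 0, where it is at 0.0276 FPKM.

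Signal transducers of these receptors, 21 genes and all tested, had a median difference of 0.08, or 0.01 without replicate 0, and 0 passed the adjusted limit in limma. Stat6 was at 38.4, 33.1 and 34.3 FPKM in controls and at 53.1, 30.8 and 38.2 FPKM in JunBΔep skin, a difference of 0.17 (limma adjusted p = 0.798). Stat5b, a transducer of IL-7 and TSLP signals, was the 1 gene with an unadjusted p below 0.05 and with groups that stood apart, at 17.0, 16.1 and 14.2 FPKM in controls and at 7.46, 7.44 and 13.1 FPKM in JunBΔep skin (difference -0.77, limma adjusted p = 0.487). Of all tested genes 7.56% met the first condition and 14.8% the second, so 1 of 21 is below both shares. Socs1, which inhibits these receptors by feedback, was at 4.91, 6.49 and 3.83 FPKM in controls and at 24.9, 6.76 and 5.22 FPKM in JunBΔep skin. Gata3, the master regulator of type 2 lymphocytes that keratinocytes express as well, was at 62.0 to 92.5 FPKM in controls and at 12.8, 95.1 and 64.5 FPKM in JunBΔep skin, so replicate 0, highest in the receptors, was the lowest here.

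Genes known to be induced by IL-4 and IL-13 were taken from a list of 26, of which 25 were tested. Under limma 0 had an adjusted p below 0.05. Unadjusted p fell below 0.05 for 5 genes, Ccl11, Ccl24, Fcer2a, Cd209d and Mgl2, each lower in JunBΔep skin, beside 7.56% of all tested genes. In 4 of these the groups did not overlap, and with Serpinb3a the list holds 5 such genes among the 25 tested, beside 14.8% of all tested genes. Ccl24, the eosinophil attractant eotaxin-2, was at 10.9, 8.45 and 5.95 FPKM in controls and at 3.52, 3.38 and 3.43 FPKM in JunBΔep skin (difference -1.14, SE 0.26, limma adjusted p = 0.161). Fcer2a, the low-affinity IgE receptor, was at 5.72, 1.54 and 2.81 FPKM in controls and at 0.132, 0.589 and 0.400 FPKM in JunBΔep skin (difference -2.03, limma adjusted p = 0.163).

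The list holds 4 lectins of macrophages and dendritic cells, none of which passed the adjusted limit. Cd209d was at 54.1, 38.6 and 34.1 FPKM in controls and at 5.88, 7.59 and 19.7 FPKM in JunBΔep skin (difference -2.05, limma adjusted p = 0.160). Mgl2 was at 50.1, 34.9 and 29.7 FPKM in controls and at 2.75, 9.22 and 26.6 FPKM in JunBΔep skin (difference -1.99, limma adjusted p = 0.584). The groups of Mrc1 and Clec10a overlapped, with differences of -0.63 and -1.10. Ccl11, eotaxin-1, was at 31.2 to 52.6 FPKM in controls and at 20.1, 11.0 and 31.3 FPKM in JunBΔep skin (difference -1.08, limma adjusted p = 0.585). The 12 macrophage and dendritic cell markers summed to 1133 to 1825 FPKM in controls and to 400 to 975 FPKM in JunBΔep skin, and most of each sum is the antigen presentation genes Cd74 and H2-Ab1. Of these markers limma called 0, and 1 higher (Ccr7) and 3 lower had an unadjusted p below 0.05, beside 7.56% of all tested genes. The monocyte marker Cd14 ran the other way in replicate 0. It was at 4.79 to 9.96 FPKM in controls and at 169.6, 2.91 and 17.8 FPKM in JunBΔep skin. Of the 12 markers, replicate 0 was the highest mouse for 5, Cd14 included, and the lowest for 2. The part of monocytes, macrophages and dendritic cells in the values was not tested.

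Other genes of this list split within the JunBΔep group. Retnla, a marker of alternatively activated macrophages, was at 276.8 to 502 FPKM in controls and at 2.02, 232 and 334 FPKM in JunBΔep skin. Arg1, the arginase of the same program, was at 30.3 to 47.0 FPKM in controls and at 174, 18.4 and 23.4 FPKM in JunBΔep skin. Serpinb3a, of the family of squamous cell carcinoma antigens, was the 1 gene whose JunBΔep values all lay above the controls, at 0.0565, 0.104 and 0.221 FPKM in controls and at 445, 0.878 and 2.87 FPKM in JunBΔep skin (limma adjusted p = 0.719). Serpinb3a has close paralogs among which reads may be split, so its level is uncertain. Over the 25 genes the median difference was -0.06, with 11 higher and 14 lower, and it was 0.04 under quantile normalization, so its sign depends on the scaling. Without JunBΔep replicate 0 the median was -0.69, with 7 higher and 17 lower among 24 genes and 0 passing the adjusted limit.

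**Figure D5:**
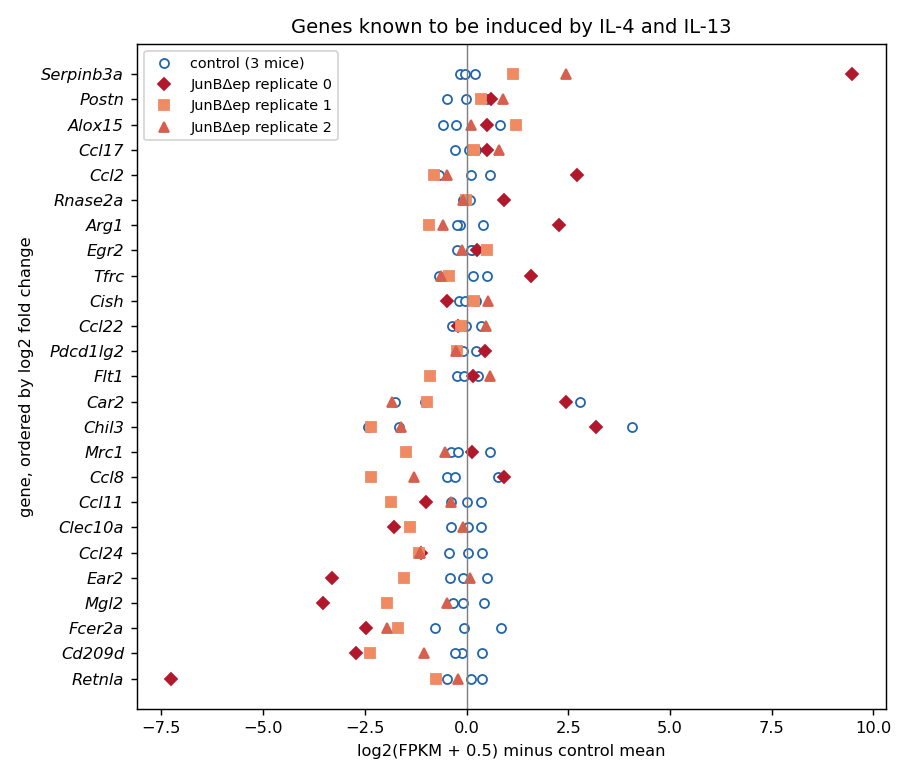
The 25 tested genes known to be induced by IL-4 and IL-13, ordered by log2 fold change: log2(FPKM + 0.5) of each mouse minus the control mean, with controls as open circles and the 3 libraries labelled JunBΔep as filled symbols. All 3 JunBΔep points lie below the controls for Ccl24, Fcer2a, Cd209d and Mgl2 and above them for Serpinb3a; Retnla is far lower in replicate 0 than in replicates 1 and 2.

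Cells that make or read type 2 cytokines left the following marker levels beside the members. The 9 neutrophil markers in the table summed to 17.97 to 1490 FPKM in controls and to 25030, 25.2 and 141 FPKM in JunBΔep skin, although S100a9 is listed at 0 in replicate 0 beside S100a8 at 24456 FPKM. The 12 T cell and innate lymphoid markers summed to 74.1 to 127 FPKM in controls and to 232, 86.3 and 89.7 FPKM in JunBΔep skin. The excess of replicate 0 lay mainly in Areg and Thy1. Thy1, which is also on the list of dermal fibroblast markers, made up most of each control sum, at 51.7 to 81.2 FPKM. Among the 11 tested genes of this list, replicate 0 was the highest of the 6 mice for 6 and the lowest for 2. Icos was at 3.50 FPKM in replicate 0 against 0.351 to 0.530 FPKM among controls, and Cd3e at 1.96 FPKM against 3.70 to 8.44 FPKM. Eosinophil and basophil markers, 10 genes, summed to 13.5, 2.56 and 2.41 FPKM in controls and to 60.1, 2.08 and 1.98 FPKM in JunBΔep skin. Ear6 made up 55.1 FPKM of the sum in replicate 0, and Epx is listed at 0 in all 3 JunBΔep mice and control replicate 1, while control replicates 0 and 2 held 0.325 and 0.0236 FPKM of it. The 12 mast cell markers summed to 151 to 355 FPKM in controls and to 260, 118 and 215 FPKM in JunBΔep skin. The listed receptor chains and 7 of the 9 neutrophil markers were thus highest in JunBΔep replicate 0, where S100a8 made up most of the neutrophil sum. The exceptions were S100a9 and Cd177, the latter at 10.1 FPKM in control replicate 0 against 6.99 FPKM. The part of any cell type in the receptor values was not tested.

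Neighbours in the genome were looked at for both clusters. Of 11 genes listed around the Il4, Il13 and Il5 cluster, 10 were tested, with a median difference of 0.01 and 0 called, or -0.0043 without JunBΔep replicate 0. Rad50 was at 3.84 to 4.27 FPKM in controls and at 3.93 to 4.94 FPKM in JunBΔep skin. Around Il1rl1, 6 genes of the interleukin 1 receptor cluster had a median of 0.09, with 3 higher, 3 lower and 0 called, or -0.05 without JunBΔep replicate 0. Il18rap was at 0.229 to 0.574 FPKM in controls and at 5.02, 0.247 and 0.523 FPKM in JunBΔep skin, whereas Il18r1, its partner in the IL-18 receptor, was at 2.75 to 7.77 FPKM in controls and at 2.38, 1.76 and 6.10 FPKM in JunBΔep skin.

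The genes most like each member over the 6 mice were found by the root mean square difference of log2(FPKM + 0.5) values, each gene centred on its own mean, for the 7 members with a mean of at least 1 FPKM. Among the members themselves Il13ra1 and Il13ra2 were nearest to each other, at 0.157, followed by Crlf2 and Il7r at 0.176. Over all tested genes Il4ra was nearest to Tnf at 0.108, which was at 1.07 to 2.04 FPKM in controls and at 12.7, 1.54 and 1.39 FPKM in JunBΔep skin. Il13ra1 was nearest to Tmem173 at 0.0860 and to Ankrd37 at 0.0899, and Ankrd37 was also nearest to Il13ra2 at 0.112. Crlf2 was nearest to Grina at 0.0714, Il7r to Lpxn at 0.0473, Tslp to Ccrl2 at 0.135 and Il1rl1 to Akr1b8 at 0.127. All these distances rest on 6 libraries.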

How the data were processed

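RNA of skin from 3 JunBΔep and 3 control mice was sequenced from poly(A) libraries made with a stranded kit. Per the labels and the submitters' processing notes, reads were checked with FastQC and aligned to mm9 with TopHat2 2.0.10, Bowtie 1.0.0 and SAMtools 0.1.19, and Cufflinks is named without a role. The authors deposited FPKM per gene and mouse, which were used as deposited. They sum to 481078 to 630363 per mouse, with 18418 to 18873 genes above 0. The read depth is unknown, which tool made the FPKM is not stated in the sources used here, and read counts, on which the authors ran DESeq2, were not analysed here.

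The 17021 genes averaging 0.1 FPKM or more were compared as log2(FPKM + 0.5) by limma (3.58.1, R 4.3.3), fitting a trend of spread on level and no block. Tests were two-sided, adjusted by Benjamini and Hochberg, and called at 0.05. The log2(FPKM + 0.5) scale understates the change of low genes. The members and gene lists were chosen with earlier results of these data known. All members are named, further genes come from 16 hand-written lists (194 of 198 symbols found), and the 2 tested genes most like each member could be named. Positions are from GENCODE on mm9, sequences from RefSeq on GRCm38.p6. The procedure was tested on simulated data, where changes slightly larger than that of any member were not recovered. The lack of calls among the members therefore does not show that they were unchanged. Alternatives changed the pseudocount (0.1, 1) or the filter (none, 1 FPKM), or used 3 rescalings, no trend, a block on the replicate number or the title series, and each mouse left out. The values of lists without JunBΔep replicate 0 were an alternative chosen after seeing the data. Python 3.11.15 with pandas 2.3.3 and matplotlib 3.10.9 was used for tables and plots.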

Additional observations from a re-analysis of the deposited data

How the results depend on the processing

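Of the 191 alternative values computed for the count of called genes, the members and the ratios, 167 kept their direction or, for the count, stayed within 1.5 times, 16 changed sign and 8 counts moved further. A changed filter, no trend and the replicate block cannot alter a member's log2 difference, so their member values are among the 167 by construction. These settings bear only on p and on the count of called genes. No member passed an adjusted p of 0.05 in limma under any alternative. The 235 called genes became 23 without the filter on low values and 0 with a block on the title series. The deviations of same-numbered mice correlated at 0.12, -0.23 and -0.43, and those of other pairs at -0.371 to 0.46. Deviations from the mean of 3 mice offset each other, so they cannot decide whether the replicate numbers pair the mice. The replicate block called 0 genes. Each number holds 1 mouse of each group, so this block cannot change a member's difference. Leaving out 1 mouse gave 0 to 254 called genes, with 135 without JunBΔep replicate 0, 254 without JunBΔep replicate 2 and 0 without any other mouse. With the title series as a block Il4 was at 0.062 and Tslp at 0.38, against -0.15 and -0.04. That fit gives JunBΔep replicate 0 and control replicate 2 more weight than the main fit. With 1 mouse left out, log2 differences ranged from -0.37 to 0.089 for Il4, from -0.024 to 0.28 for Il13, from -0.73 to 0.45 for Tslp, from -0.085 to 1.30 for Il4ra, from -0.35 to 0.84 for Il13ra1, from -0.33 to 0.85 for Il13ra2, from 0.15 to 0.77 for Crlf2, from -0.058 to 0.71 for Il7r and from -0.25 to 1.74 for Il1rl1. Crlf2 was lowest without JunBΔep replicate 0 and highest without JunBΔep replicate 1. For Il13 and the other 5 receptors the negative end is the value without JunBΔep replicate 0. Il4 turned positive without control replicate 1 (0.089) or JunBΔep replicate 1 (0.017), and Tslp without control replicates 0 (0.039) or 1 (0.027) or JunBΔep replicates 1 (0.45) or 2 (0.17). The ratio of Il13ra2 to Il13ra1 ranged from -0.051 to 0.17 and that of Crlf2 to Il7r from -0.026 to 0.20, each negative without control replicate 2. Il4ra to Il13ra1 ranged from 0.27 (without JunBΔep replicate 0) to 0.71 (without control replicate 1) and Il1rl1 to Il1rap from 0.096 (without JunBΔep replicate 0) to 1.28 (without JunBΔep replicate 1). The causes of these shifts were not tested. The depth is unknown, so precision rests on 3 mice per group.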

Other observations

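Receptors for type 2 chemokines and lipid mediators, which guide eosinophils, T helper 2 cells and mast cells, were read from a list of 8 genes, of which 6 were tested. Under limma 0 passed an adjusted p of 0.05, 0 had an unadjusted p below 0.05, and the median log2 difference was -0.22, with 2 higher and 4 lower, or -0.25 without JunBΔep replicate 0. Ccr3, the eotaxin receptor of eosinophils, was the 1 gene whose groups stood apart, at 0.577, 0.177 and 0.0840 FPKM in controls and at 0.0751, 0.0616 and 0.0365 FPKM in JunBΔep skin (limma adjusted p = 0.722), where 14.8% of all tested genes stood apart. Ltb4r1, a leukotriene B4 receptor, was at 9.48 to 18.2 FPKM in controls and at 46.4, 13.6 and 16.1 FPKM in JunBΔep skin.

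Dermal fibroblast markers, 10 genes, had a median difference of -0.55, with 2 higher, 8 lower and 0 called, or -0.86 without JunBΔep replicate 0. B cell markers, 5 tested, had a median of 0.06, or 0.13 without that library. The 12 mast cell markers had a median of -0.40, with 4 higher, 8 lower and 0 called, or -0.50 without JunBΔep replicate 0. That library was the highest for 3 of them and the lowest for 1. Hdc, which makes histamine, was at 2.89 to 4.71 FPKM in controls and at 70.7, 3.34 and 6.27 FPKM in JunBΔep skin. Mrgprb2, a connective tissue mast cell receptor, was at 7.01 to 10.7 FPKM in controls and at 0.732, 4.04 and 7.14 FPKM in JunBΔep skin. In JunBΔep replicate 0 Hdc was thus above and Mrgprb2 below every other mouse.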
